A study of Homo sapiens with 16 samples.

Results

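The 52 genes described here encode parts of the centrosome: factors that start, lengthen, cap and limit centrioles, the gamma-tubulin complex, the scaffold and linker around centrioles, the augmin complex and the centriolar satellites. They were chosen by gene symbol from a list of 52 names, and each matched 1 gene among the 58735 in the deposited count tables. The list was chosen with earlier results of these data known. Messenger RNA was counted in MDA-MB-231 and SUM159PT cells, both established human triple-negative breast cancer lines, 48 h after delivery of either siYES1, which targets YES1, or siNS, a non-silencing siRNA directed at firefly luciferase. The YES1 protein belongs to the SRC kinases, and the study's title places it in centrosome homeostasis and chromosomal stability. The groups were MDA-MB-231 with siYES1, MDA-MB-231 with siNS, SUM159PT with siYES1 and SUM159PT with siNS, each with 4 libraries; all are labelled WT in genotype and all were transfected with Lipofectamine. The submitters call the 4 libraries of a group technical replicates, so the p-values below measure the spread between such samples and not between independent experiments. In bulk RNA of this kind, more cells of 1 state and more RNA per cell cannot be told apart.

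A centrosome holds a mother and a daughter centriole inside a protein matrix, and it is the main site at which animal cells start microtubules. In each cell cycle the kinase PLK4, placed on the mother centriole by CEP152 and CEP192, works with STIL and SASS6 to lay down a cartwheel on which a new centriole grows, and CCP110 with CEP97 caps its tip. Gamma-tubulin complexes in the matrix nucleate microtubules, augmin brings further gamma-tubulin complexes onto spindle microtubules, and satellites carry proteins to the centrosome. Extra or misshapen centrosomes are a known feature of breast tumours.

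YES1, the targeted gene, was lower in every library labelled siYES1. It had 13.5, 14.5, 14.3 and 12.7 CPM in the siYES1 libraries, against 71.4, 57.1, 63.8 and 60.3 CPM in the siNS libraries of MDA-MB-231 cells, where CPM, the unit of levels below, is a count set relative to the scaled library size. In SUM159PT it had 15.8, 15.7, 19.4 and 17.9 CPM in the siYES1 libraries, against 99.7, 149.6, 151 and 136 CPM in the siNS libraries. The ranges did not overlap in either line, and the siYES1 mean was 21.8% of the siNS mean in MDA-MB-231 and 12.9% in SUM159PT. The log2 fold change of siYES1 over siNS was -2.20 ± 0.09 (SE, adjusted p = 5.25e-11) in MDA-MB-231 and -2.96 ± 0.14 (SE, adjusted p = 3.88e-08) in SUM159PT, by edgeR's quasi-likelihood test with Benjamini-Hochberg adjustment over all genes tested.

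Total counts ran between 15680459 and 23451253 per library. In SUM159PT, siNS replicate 1 stood apart from its group on the second principal component (47.6, against -32.9 to -11.1 for the other siNS libraries), and members whose call changes without it are given both ways. The siNS libraries of MDA-MB-231 were split on that line's second component. Replicates 1 and 2 lay at 14.45 and 20.85, and replicates 3 and 4 at -17.08 and -18.58. The luminal receptor genes ESR1 and PGR stayed at or below 1.34 CPM in every library, ERBB2 had 46.9 to 126 CPM, and VIM and CD44, markers of mesenchymal-like lines, were abundant (413 to 2324 CPM for VIM and 559 to 995 CPM for CD44). On the log2 scale VIM rose with siYES1 by 0.77 in MDA-MB-231 and 0.80 in SUM159PT. CD44 rose by 0.23 in SUM159PT and was at -0.04, not called, in MDA-MB-231. The T cell gene CD3E was at or near 0 in all 16 libraries. The 5 fibroblast-associated markers (COL1A1, PDGFRA, PDGFRB, DCN and LUM) summed to 26.1 to 31.8 CPM with siYES1, against 62.6 to 74.0 CPM with siNS in MDA-MB-231, and to 637 to 741 CPM with siYES1, against 1706 to 1969 CPM with siNS in SUM159PT. COL1A1 and PDGFRB fell in both lines and PDGFRA in SUM159PT. DCN in SUM159PT (log2 fold change 0.43) and LUM in MDA-MB-231 (0.10) were not called. The leukocyte markers PTPRC, CD3E and CD14 summed to 1.52 to 2.61 CPM with siYES1, against 7.84 to 10.1 CPM with siNS in MDA-MB-231, and to 0.374 to 1.27 CPM with siYES1, against 3.37 to 5.33 CPM with siNS in SUM159PT. The 3 endothelial markers summed to 2.44 to 4.44 CPM with siYES1, against 4.58 to 9.25 CPM with siNS in MDA-MB-231, and to 0.268 to 0.476 CPM with siYES1, against 1.72 to 3.21 CPM with siNS in SUM159PT. These sums moved with the siRNA in both lines, and so did VIM. The part of these markers in the results below was not tested.

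Most centrosome genes were higher after YES1 knockdown in MDA-MB-231, and fewer were in SUM159PT. In MDA-MB-231, 32 of the 51 members tested rose and 3 fell (TUBGCP2, NINL and CEP250), at an adjusted p under 0.05; of all 14319 genes tested in that line, 24.9% rose and 27.5% fell. SPICE1, a centriole elongation factor, had too few counts to be tested there. In SUM159PT, 18 of 52 members rose and 2 fell (TUBGCP2 and TUBGCP6), where 17.7% of all 14469 genes rose and 19% fell. The median log2 fold change of the members was 0.36 in MDA-MB-231, where that of all genes was 0.0015, and 0.20 in SUM159PT, where that of all genes was -0.03. With 1 library left out, the MDA-MB-231 member median was 0.31 to 0.46, highest without siNS replicate 1. As the members were chosen with earlier results of these data known, their excess over all genes is given as a description. Without SUM159PT siNS replicate 1, 22 members rose and 3 fell in that line, and the shares of all genes were higher too, 21% rising and 21.5% falling. The SUM159PT split also depends on the scaling of the libraries: with total counts as the scaling, which shifts the median of all genes there by -0.17, 11 members rose and 6 fell, among 1394 genes that rose (9.63%) and 4173 that fell (28.8%) in all. The TMM factors of that line were 0.935 to 0.959 with siYES1 and 1.032 to 1.115 with siNS.

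**Figure D1:**
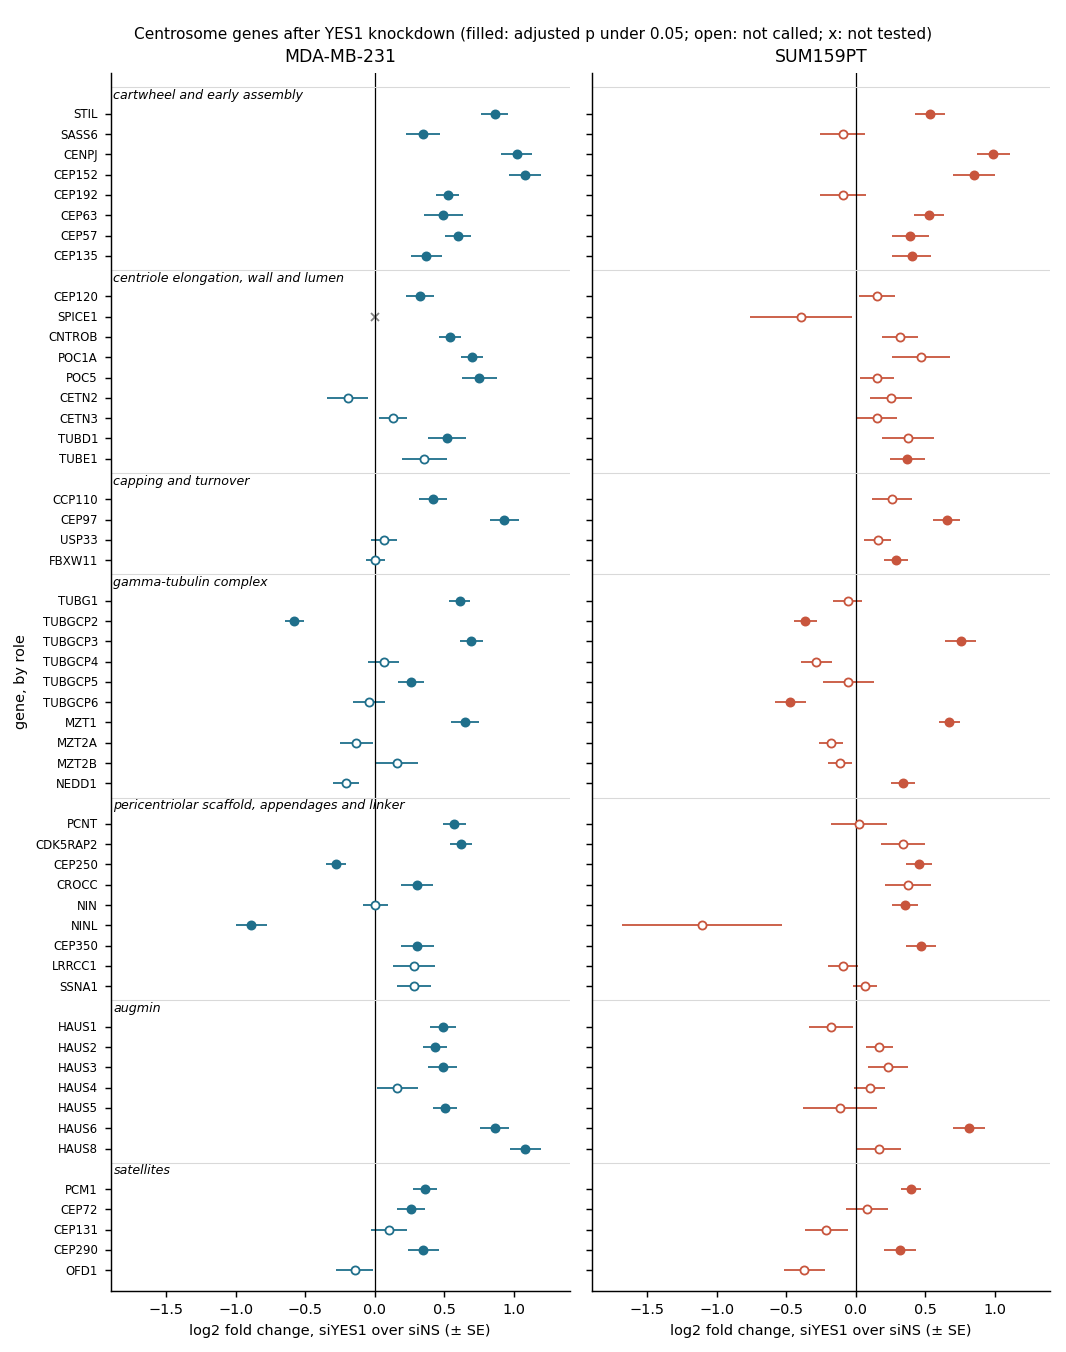
Log2 fold change of siYES1 over siNS (± SE, edgeR) for the 52 centrosome genes, grouped by role, in MDA-MB-231 (left) and SUM159PT (right); filled points passed an adjusted p of 0.05, open points did not, and the cross marks SPICE1, not tested in MDA-MB-231. All 8 cartwheel genes lie to the right of 0 in MDA-MB-231, and TUBGCP2 lies to the left in both lines.

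The promoter windows below show DNA just before the RefSeq start site of members on which the results turn: TUBG1 and HAUS8, which responded differently in the lines, STIL and CEP63, which rose in both, and TUBGCP2, which fell in both. Sequences are from RefSeq (GRCh38.p14), written 5′ to 3′ on the strand of the gene. Capitals mark letters that match, on either strand, a CHR element (TTTGAA or TTCGAA), an E2F word (TTTGGCGC, TTTCCCGC, TTTGGCGG or TTTCCCGG) or a CCAAT box (CCAAT), all known from promoters of cell cycle genes.
TUBG1, chr17:42609563-42609682, plus strand: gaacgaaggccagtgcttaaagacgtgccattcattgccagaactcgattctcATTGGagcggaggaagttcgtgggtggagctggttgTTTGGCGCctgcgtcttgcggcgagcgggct
HAUS8, chr19:17075453-17075482, minus strand: agggggcgggtccggcTTTGAAaagccggc
STIL, chr1:47314148-47314267, minus strand: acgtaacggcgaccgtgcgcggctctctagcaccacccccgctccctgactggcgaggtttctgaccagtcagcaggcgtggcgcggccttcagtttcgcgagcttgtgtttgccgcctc
CEP63, chr3:134485604-134485723, plus strand: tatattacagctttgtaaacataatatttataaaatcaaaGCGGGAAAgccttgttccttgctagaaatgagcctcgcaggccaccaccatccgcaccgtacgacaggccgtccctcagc
TUBGCP2, chr10:133312338-133312457, minus strand: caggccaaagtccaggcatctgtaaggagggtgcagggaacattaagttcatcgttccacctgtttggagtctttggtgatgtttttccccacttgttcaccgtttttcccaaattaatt
The TUBG1 window held an E2F word 31 bases before the start and a CCAAT box on the opposite strand, and the HAUS8 window, cut short because its GENCODE start lies 173 bases upstream, a CHR element 14 bases before the start. The CEP63 window held an E2F word on the opposite strand 80 bases before the start. STIL and TUBGCP2 had no match in the printed bases; STIL had 3 CCAAT boxes further out, at 171, 138 and 125 bases. A match of this kind is a description of letters and not a binding site.

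Over the 250 bases before the start, a CHR element stood in 6 of the 44 members with a RefSeq promoter (13.6%), beside 11.8% of 14896 protein-coding promoters. An E2F word stood in 3 of 44 (6.82%), beside 4.91% of all, and a CCAAT box in 15 of 44 (34.1%), beside 34.5% of all. The members as a set therefore carried these words about as often as other coding genes. By role, 3 of 7 cartwheel genes held a CHR element (CEP152 at 179 bases and CEP192 at 194 bases, both on the opposite strand, and CEP57 at 67 bases), and so did MZT1, HAUS8 and CEP290. CENPJ, SPICE1, CETN3, TUBGCP4, CEP250, LRRCC1, SSNA1 and PCM1 were not among the promoters matched.

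Among the cartwheel and early assembly genes, all 8 rose in MDA-MB-231 (median log2 fold change 0.56) and 6 of 8 rose in SUM159PT (median 0.46). Of all genes tested, 24.9% rose in MDA-MB-231 and 17.7% in SUM159PT. CEP152 (GENCODE 29, hg38, chr15:48712928-48811146, minus strand), the scaffold that places PLK4 on the mother centriole, had 19.2, 20.01, 21.01 and 21.6 CPM in the siYES1 libraries, against 11.9, 8.88, 9.62 and 8.29 CPM in the siNS libraries of MDA-MB-231. Its SUM159PT values were 25.5, 23.9, 23.3 and 22.7 CPM with siYES1, against 9.22, 14.2, 14.7 and 14.6 CPM with siNS. Every siYES1 library was above every siNS library in both lines, about 2 times higher in MDA-MB-231, and the log2 fold change was 1.08 ± 0.12 (SE, adjusted p = 9.27e-07) in MDA-MB-231 and 0.85 ± 0.15 (SE, adjusted p = 0.000704) in SUM159PT. CENPJ (chr13:24882284-24922889, minus strand), which elongates the new centriole's microtubules, had 17.9, 18.02, 15.7 and 20.5 CPM with siYES1, against 9.71, 9.41, 8.47 and 7.93 CPM with siNS in MDA-MB-231. Its SUM159PT values were 31.4, 34.6, 38.7 and 32.9 CPM with siYES1, against 14.8, 16.8, 17.7 and 19.9 CPM with siNS. It rose by a like amount in both lines, by 1.02 ± 0.11 (SE, adjusted p = 1.38e-06) in MDA-MB-231 and 0.99 ± 0.12 (SE, adjusted p = 4.25e-05) in SUM159PT on the log2 scale.

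STIL (chr1:47250139-47314147, minus strand), the PLK4 substrate that recruits SASS6, had 69.8, 69.9, 64.04 and 66.1 CPM in the siYES1 libraries, against 43.5, 34.3, 39.9 and 30.9 CPM in the siNS libraries of MDA-MB-231, a log2 fold change of 0.86 ± 0.10 (SE, adjusted p = 1.72e-06). In SUM159PT the values were 35.6, 31.9, 37.05 and 35.1 CPM with siYES1, against 26.9, 21.3, 23.6 and 24.6 CPM with siNS, a log2 fold change of 0.53 ± 0.11 (SE, adjusted p = 0.00165). The 4 siYES1 values of STIL were the higher ones in each line. CEP63 and CEP57, which form a ring around the mother centriole, rose by 0.49 and 0.60 in MDA-MB-231 and by 0.52 and 0.39 in SUM159PT on the log2 scale. Without SUM159PT siNS replicate 1 the CEP57 value there was 0.25 (adjusted p = 0.0074). CEP135, a cartwheel-to-wall linker, rose by 0.37 in MDA-MB-231 and 0.40 in SUM159PT, where its call was lost in 9 of 16 other settings and that of CEP57 in 6. SASS6, the cartwheel's structural subunit, rose in MDA-MB-231 with 21.6 ± 0.658 CPM with siYES1 and 16.9 ± 3.52 CPM with siNS (SD, n = 4 each) and overlapping libraries, at 0.34 ± 0.12 (SE, adjusted p = 0.0273); its SUM159PT log2 fold change was -0.09 ± 0.16 (SE, adjusted p = 0.685). CEP192, a further PLK4 recruiter, rose by 0.52 in MDA-MB-231 and had a value of -0.09 ± 0.17 (SE, adjusted p = 0.702) in SUM159PT. The SASS6 call in MDA-MB-231 was lost in 7 of the 16 other settings tried.

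PLK4, which is no member but acts with these genes, had 56.4, 49.3, 49.7 and 55.8 CPM in the siYES1 libraries, against 29.6, 24.7, 28.2 and 23.9 CPM in the siNS libraries of MDA-MB-231. In SUM159PT it had 30.2, 26.3, 34.1 and 28.9 CPM with siYES1, against 23.8, 12.8, 18.4 and 15.4 CPM with siNS. Its siYES1 and siNS libraries did not overlap, and it rose by 0.99 ± 0.09 (SE, adjusted p = 1.55e-07) in MDA-MB-231 and 0.76 ± 0.17 (SE, adjusted p = 0.00335) in SUM159PT on the log2 scale.

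**Figure D2:**
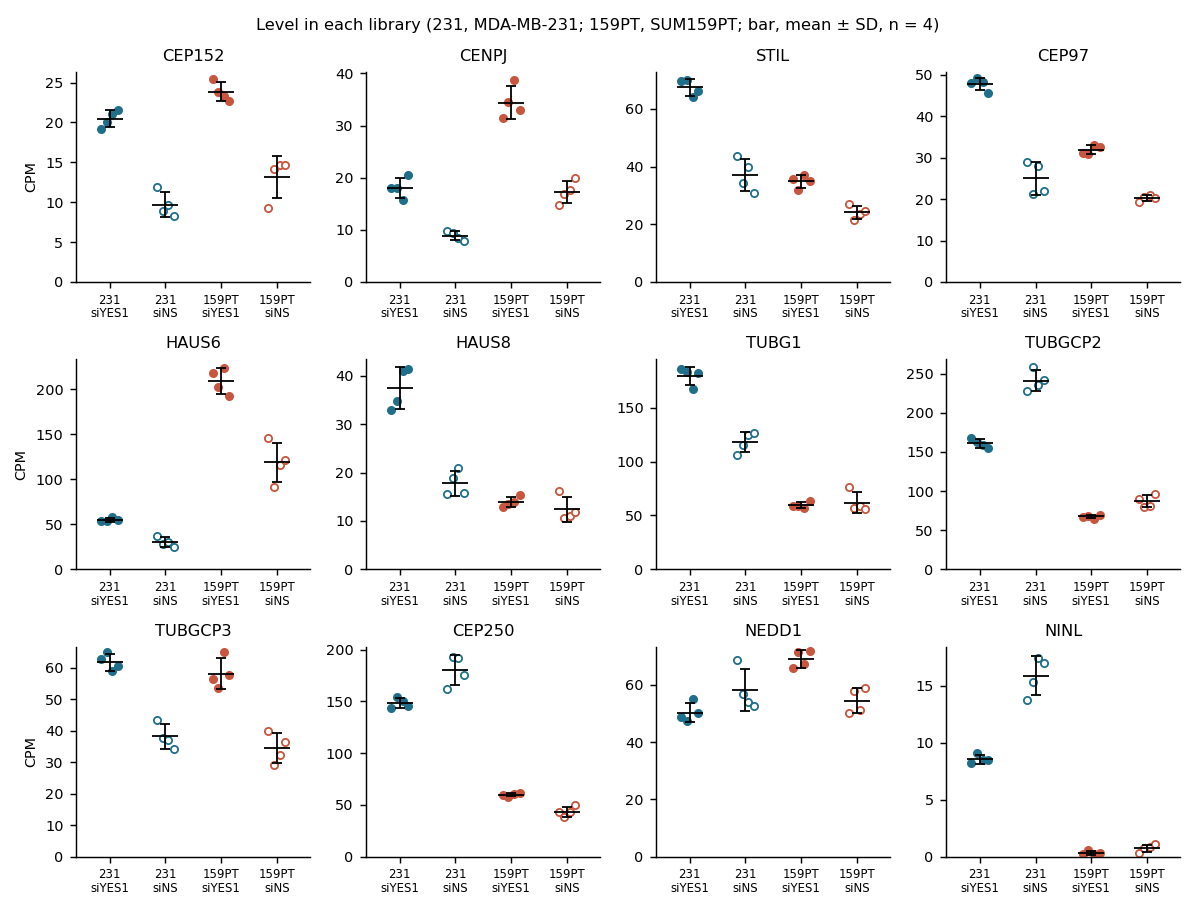
Level in CPM of 12 centrosome genes in each of the 16 libraries (filled, siYES1; open, siNS; blue, MDA-MB-231; red, SUM159PT), with the mean ± SD of 4 libraries. CEP152, CENPJ, STIL, CEP97, HAUS6 and TUBGCP3 have siYES1 libraries above siNS libraries in both lines, TUBGCP2 has them below in both, and CEP250 has them below in MDA-MB-231 and above in SUM159PT.

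Among genes of centriole elongation, wall and lumen, 5 of 8 tested rose in MDA-MB-231 (CEP120, CNTROB, POC1A, POC5 and TUBD1; median of the 8, 0.44), and TUBE1 was the 1 of 9 that rose in SUM159PT (median of the 9, 0.25). The shares of all genes that rose were 24.9% in MDA-MB-231 and 17.7% in SUM159PT. The test of the difference between the lines, given further on, called POC5 alone of these 9 members. POC5, a protein of the centriole lumen, had 23.2, 17.2, 18.9 and 20.4 CPM with siYES1, against 13.9, 10.6, 12.6 and 10.2 CPM with siNS in MDA-MB-231, without overlap. In SUM159PT its libraries overlapped, with 15.4, 16.6, 14.5 and 14.7 CPM with siYES1, against 14.1, 14.5, 13.98 and 12.5 CPM with siNS, and the log2 fold changes were 0.75 ± 0.12 (SE, adjusted p = 8.21e-05) in MDA-MB-231 and 0.15 ± 0.12 (SE, adjusted p = 0.363) in SUM159PT. POC1A, which stabilises the centriole wall, had 71.7, 74.4, 77.04 and 79.6 CPM with siYES1, against 41.3, 49.00, 50.5 and 45.95 CPM with siNS in MDA-MB-231. Those libraries were apart, with a log2 fold change of 0.70 ± 0.08 (SE, adjusted p = 2.22e-06). In SUM159PT POC1A averaged 15.1 ± 2.47 CPM with siYES1 and 10.9 ± 3.56 CPM with siNS (SD, n = 4 each), at 0.47 ± 0.21 (SE, adjusted p = 0.0951); without siNS replicate 1, whose value was near the siYES1 values, it was 0.70 (adjusted p = 0.00146).

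CNTROB, which helps daughter centrioles elongate, had 79.9, 77.9, 80.4 and 83.8 CPM with siYES1, against 49.6, 60.8, 55.1 and 55.8 CPM with siNS in MDA-MB-231, a rise of 0.54 ± 0.08 (SE, adjusted p = 2.26e-05). In SUM159PT it averaged 25.4 ± 3.81 CPM with siYES1 and 20.4 ± 1.55 CPM with siNS (SD, n = 4 each), at 0.32 ± 0.13 (SE, adjusted p = 0.0649), and without siYES1 replicate 4 it was called there at 0.40 (adjusted p = 0.0377). The delta-tubulin and epsilon-tubulin genes TUBD1 and TUBE1, needed for the triplet microtubules of centrioles, were each called in 1 line. TUBD1 rose by 0.52 in MDA-MB-231 and was at 0.38 ± 0.19 (SE, adjusted p = 0.131) in SUM159PT. TUBE1 had 17.2, 19.6, 17.7 and 19.4 CPM with siYES1, against 13.4, 16.6, 14.1 and 13.1 CPM with siNS in SUM159PT, where it rose by 0.37 ± 0.13 (SE, adjusted p = 0.0342); in MDA-MB-231, at a lower level of 6.40 ± 0.800 CPM with siYES1 and 4.997 ± 0.988 CPM with siNS (SD, n = 4 each), the value was 0.36 ± 0.16 (SE, adjusted p = 0.077). The TUBE1 call in SUM159PT was lost in 7 of 16 other settings, and in MDA-MB-231 TUBE1 passed without siYES1 replicate 1 (0.44, adjusted p = 0.0417) or without siNS replicate 1 (0.49, adjusted p = 0.0212). The centrin genes CETN2 and CETN3 were called in neither line. CETN3 had 19.9, 21.1, 21.1 and 22.1 CPM with siYES1, against 20.4, 22.1, 17.98 and 16.5 CPM with siNS in MDA-MB-231, and 17.8, 13.1, 20.3 and 17.2 CPM with siYES1, against 16.8, 16.2, 14.9 and 13.7 CPM with siNS in SUM159PT. Its groups overlapped in both lines, and its log2 fold changes were 0.13 and 0.15.

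Of the capping and turnover genes, CEP97 rose in both lines. CEP97 (chr3:101723925-101770562, plus strand), the partner that holds the cap protein CCP110 on centriole tips, had 47.96, 49.1, 48.2 and 45.6 CPM with siYES1, against 29.04, 21.2, 27.9 and 21.9 CPM with siNS in MDA-MB-231. SUM159PT libraries held 31.1, 30.9, 33.1 and 32.6 CPM with siYES1, against 19.2, 20.5, 21.05 and 20.3 CPM with siNS. Neither pair of groups overlapped, and the log2 fold changes were 0.93 ± 0.10 (SE, adjusted p = 1.15e-06) in MDA-MB-231 and 0.66 ± 0.10 (SE, adjusted p = 0.000194) in SUM159PT. CCP110 had 25.2, 25.8, 23.8 and 25.05 CPM with siYES1, against 22.7, 17.4, 17.2 and 17.3 CPM with siNS in MDA-MB-231, a rise of 0.42 ± 0.10 (SE, adjusted p = 0.00286). The SUM159PT libraries had 35.7, 38.4, 46.1 and 38.3 CPM with siYES1, against 23.3, 36.2, 36.9 and 35.8 CPM with siNS, at 0.26 ± 0.14 (SE, adjusted p = 0.179), where siNS replicate 1 was well below the rest. Without that library the SUM159PT value of CCP110 was 0.12, and its adjusted p 0.369.

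FBXW11, a ubiquitin ligase subunit of the family that degrades PLK4, had 102, 103, 104 and 104 CPM with siYES1, against 109.7, 94.7, 104 and 104 CPM with siNS in MDA-MB-231, with a log2 fold change of 0.00 ± 0.07 (SE, adjusted p = 0.972). Its SUM159PT values were 115, 120.01, 116 and 116 CPM with siYES1, against 80.3, 98.7, 103 and 100.4 CPM with siNS. There all siYES1 values were the higher ones, at 0.29 ± 0.09 (SE, adjusted p = 0.0179). USP33, which removes ubiquitin from CCP110, had 85.99, 93.04, 98.9 and 96.4 CPM with siYES1, against 109, 81.6, 84.4 and 82.7 CPM with siNS in MDA-MB-231 and 64.9, 59.8, 64.3 and 56.8 CPM with siYES1, against 65.4, 50.02, 51.9 and 53.04 CPM with siNS in SUM159PT. It was called in neither line, at 0.06 and 0.16, but passed the threshold at 0.18 (adjusted p = 0.0347) in MDA-MB-231 and 0.24 (adjusted p = 0.0191) in SUM159PT when siNS replicate 1 of that line was left out.

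The gamma-tubulin complex genes were called in both directions: 4 of 10 rose and 1 fell in MDA-MB-231 (median 0.11), and 3 rose and 2 fell in SUM159PT (median -0.08). Of all genes tested, 24.9% rose and 27.5% fell in MDA-MB-231, and 17.7% rose and 19% fell in SUM159PT. Calls in both directions were thus not particular to this group. TUBGCP2 and TUBGCP3 encode GCP2 and GCP3, which with gamma-tubulin form the small complex from which rings are assembled, and their messages went opposite ways. TUBGCP3 (chr13:112485005-112588205, minus strand) had 62.6, 64.9, 58.8 and 60.5 CPM with siYES1, against 43.5, 37.8, 36.99 and 34.3 CPM with siNS in MDA-MB-231. In SUM159PT it had 56.5, 53.5, 64.8 and 57.6 CPM with siYES1, against 39.98, 29.2, 32.2 and 36.3 CPM with siNS. It was higher in every siYES1 library, by 0.69 ± 0.08 (SE, adjusted p = 3.64e-06) in MDA-MB-231 and 0.76 ± 0.11 (SE, adjusted p = 0.000186) in SUM159PT on the log2 scale. TUBGCP2 (chr10:133278630-133312337, minus strand), singled out after its values were seen, had 168, 163, 159.1 and 155 CPM with siYES1, against 228, 259, 235 and 242 CPM with siNS in MDA-MB-231. Its levels in SUM159PT were 67.3, 68.2, 64.8 and 69.7 CPM with siYES1, against 89.8, 80.03, 81.2 and 96.2 CPM with siNS. It was lower in every siYES1 library, with log2 fold changes of -0.58 ± 0.07 (SE, adjusted p = 2.49e-06) in MDA-MB-231 and -0.36 ± 0.08 (SE, adjusted p = 0.00394) in SUM159PT. Of its exon bases, 11.6% overlap ZNF511 genes on the opposite strand, and since no strand setting of the counting is known, a share of its reads could belong to those genes.

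The level of TUBGCP3 was also divided by that of TUBGCP2 in each library, both per kilobase of exon. In MDA-MB-231 that ratio was 0.396, 0.422, 0.392 and 0.414 with siYES1, against 0.202, 0.155, 0.167 and 0.150 with siNS. The means were 0.406 ± 0.0142 with siYES1 and 0.168 ± 0.0233 with siNS (SD, n = 4 each). In SUM159PT it was 0.892, 0.833, 1.06 and 0.877 with siYES1, against 0.472, 0.387, 0.420 and 0.401 with siNS, with means of 0.916 ± 0.100 with siYES1 and 0.420 ± 0.0374 with siNS. The 2 genes were thus at nearly equal per-length levels in SUM159PT with siYES1, and TUBGCP2 was the higher in the other 3 groups. This ratio was computed after both genes' values were seen and is given as a description.

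TUBG1 (chr17:42609676-42615234, plus strand), the main gamma-tubulin gene, had 186, 183, 168 and 183 CPM with siYES1, against 106, 115, 125 and 126 CPM with siNS in MDA-MB-231, a rise of 0.61 ± 0.08 (SE, adjusted p = 4.19e-06). Its SUM159PT values were 58.8, 58.9, 56.8 and 63.2 CPM with siYES1, against 76.2, 57.01, 58.6 and 55.6 CPM with siNS, at -0.06 ± 0.11 (SE, adjusted p = 0.709). The SUM159PT groups overlapped, and without siNS replicate 1, the highest library, the value there was 0.05. Of the 50-base words of TUBG1, 22% also occur in another gene, mainly its near copy TUBG2, so their counts may be partly mixed. TUBG2, counted among the further centrosome genes, fell by 0.59 in MDA-MB-231 and by 0.47 in SUM159PT on the log2 scale. MZT1, a small protein that binds GCP3, had 44.6, 41.4, 52.7 and 50.5 CPM with siYES1, against 27.4, 28.6, 35.6 and 29.1 CPM with siNS in MDA-MB-231. It had 122, 118, 128 and 128 CPM with siYES1, against 75.3, 84.1, 74.9 and 76.6 CPM with siNS in SUM159PT. It rose without overlap in both lines, by 0.65 ± 0.10 (SE, adjusted p = 4.88e-05) in MDA-MB-231 and 0.67 ± 0.07 (SE, adjusted p = 1.9e-05) in SUM159PT.

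TUBGCP6, a subunit of the full ring, had 15.2, 17.4, 18.1 and 18.4 CPM with siYES1, against 23.8, 26.2, 21.9 and 23.95 CPM with siNS in SUM159PT, where it fell, at -0.47 ± 0.11 (SE, adjusted p = 0.00601). In MDA-MB-231 it had 33.2, 30.6, 30.1 and 32.8 CPM with siYES1, against 27.8, 27.01, 34.6 and 41.2 CPM with siNS, with overlapping groups and -0.04 ± 0.12 (SE, adjusted p = 0.784). The ring subunit genes TUBGCP4 and TUBGCP5 had log2 fold changes of 0.06 and 0.26 in MDA-MB-231, where TUBGCP5 was called, and of -0.28 and -0.05 in SUM159PT, where neither was. TUBGCP4 was called as lower in SUM159PT without siNS replicate 1 (-0.28, adjusted p = 0.0443), without siYES1 replicate 3 (-0.37, adjusted p = 0.0275) and with total counts as the scaling (-0.45, adjusted p = 0.0103). The TUBGCP5 call was lost in 8 of 16 other settings. MZT2B, which binds GCP2, had 45.3, 42.3, 37.6 and 38.7 CPM with siYES1, against 23.7, 33.1, 45.9 and 44.6 CPM with siNS in MDA-MB-231 and 44.99, 44.4, 42.7 and 43.1 CPM with siYES1, against 44.9, 51.8, 48.1 and 44.5 CPM with siNS in SUM159PT. MZT2B and MZT2A were called in neither line, although MZT2A passed without MDA-MB-231 siNS replicate 1 (-0.26, adjusted p = 0.0132) and both passed as lower in SUM159PT with total counts. Of their words, 49.2% for MZT2B and 20.4% for MZT2A occur in other genes, so both values are uncertain.

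In the pericentriolar scaffold, appendage and linker group, 4 of 9 rose and 2 fell in MDA-MB-231 (median 0.28), and 3 of 9 rose in SUM159PT (median 0.34). Beside these stand the shares of all genes, 24.9% rising and 27.5% falling in MDA-MB-231 and 17.7% rising in SUM159PT. CDK5RAP2 and PCNT, which anchor gamma-tubulin complexes in the matrix, rose in MDA-MB-231. CDK5RAP2 had 92.4, 96.4, 98.9 and 95.4 CPM with siYES1, against 63.6, 69.3, 60.8 and 55.2 CPM with siNS there, at 0.62 ± 0.08 (SE, adjusted p = 6.23e-06), and PCNT had 153, 144, 137 and 129.6 CPM with siYES1, against 91.6, 92.02, 108 and 87.9 CPM with siNS, at 0.57 ± 0.08 (SE, adjusted p = 1.96e-05). Both genes were apart between the siRNAs in MDA-MB-231 and overlapped in SUM159PT. In SUM159PT CDK5RAP2 averaged 52.6 ± 3.95 CPM with siYES1 and 41.6 ± 11.2 CPM with siNS (SD, n = 4 each), at 0.34 ± 0.16 (SE, adjusted p = 0.107), and without siNS replicate 1 the value was 0.51 (adjusted p = 0.000733). PCNT averaged 24.6 ± 3.03 CPM with siYES1 and 24.2 ± 8.15 CPM with siNS (SD, n = 4 each) in SUM159PT, at 0.02 ± 0.20 (SE, adjusted p = 0.937).

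CEP250 (chr20:35455164-35519280, plus strand) encodes the linker protein that ties centrosomes together between divisions, and it was the 1 member called in opposite directions. It had 144, 154, 150.0 and 146 CPM with siYES1, against 162, 193, 192 and 175 CPM with siNS in MDA-MB-231, and every siYES1 library was below every siNS library, at -0.28 ± 0.07 (SE, adjusted p = 0.00415). In SUM159PT it had 59.3, 57.7, 60.02 and 61.2 CPM with siYES1, against 42.8, 37.8, 43.4 and 49.8 CPM with siNS, and every siYES1 library was above, at 0.46 ± 0.09 (SE, adjusted p = 0.00222). CROCC, which forms the rootlet fibres of the same linker, rose by 0.30 in MDA-MB-231, a call lost in 7 of 16 other settings, and was at 0.38 ± 0.17 (SE, adjusted p = 0.0938) in SUM159PT. CROCC was called as higher in SUM159PT without siNS replicate 1 (0.47, adjusted p = 0.0229) and in the joint fit of all libraries (0.42, adjusted p = 0.0251). NIN, a subdistal appendage protein, had 113, 110.3, 100.2 and 103 CPM with siYES1, against 125, 102, 106 and 92.4 CPM with siNS in MDA-MB-231, at 0.00 ± 0.09 (SE, adjusted p = 0.974). In SUM159PT the values were 58.5, 55.2, 55.4 and 65.4 CPM with siYES1, against 40.8, 48.3, 47.6 and 47.04 CPM with siNS, and the gene rose by 0.35 ± 0.09 (SE, adjusted p = 0.00969).

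NINL (chr20:25452705-25585517, minus strand), a ninein-like protein of the interphase centrosome, had 8.205, 9.10, 8.44 and 8.43 CPM with siYES1, against 13.7, 15.3, 17.4 and 17.00 CPM with siNS in MDA-MB-231, a log2 fold change of -0.89 ± 0.11 (SE, adjusted p = 4.88e-06). That was the most negative value among the members in that line. In SUM159PT NINL was near the limit of detection, with 0.214, 0.598, 0.212 and 0.317 CPM with siYES1, against 0.286, 0.710, 0.825 and 1.07 CPM with siNS, and was not called (-1.11 ± 0.58 (SE, adjusted p = 0.153)). The joint fit of all libraries called NINL as lower there (-1.08, adjusted p = 0.0238). CEP350, which anchors microtubules at the centriole, had 73.4, 70.7, 65.4 and 56.1 CPM with siYES1, against 68.5, 45.1, 54.1 and 47.1 CPM with siNS in MDA-MB-231, where the groups overlapped, at 0.31 ± 0.12 (SE, adjusted p = 0.0409), a call lost in 8 of 16 other settings. SUM159PT libraries held 67.5, 67.5, 61.8 and 66.8 CPM with siYES1, against 37.1, 53.2, 50.5 and 49.6 CPM with siNS, without overlap, at 0.47 ± 0.11 (SE, adjusted p = 0.00445). LRRCC1, a protein of the distal centriole, and SSNA1, a microtubule-binding protein, were called in neither line, with log2 fold changes of 0.28 and 0.28 in MDA-MB-231 and -0.09 and 0.07 in SUM159PT. SSNA1 was called as higher in MDA-MB-231 in 5 of 16 other settings, among them limma-voom (0.31, adjusted p = 0.049) and leaving out siNS replicate 3 (0.35, adjusted p = 0.0344) or siNS replicate 4 (0.39, adjusted p = 0.0117).

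Augmin was the group in which MDA-MB-231 and SUM159PT differed most in the number called: 6 of 7 rose in MDA-MB-231 (median 0.49) and 1 of 7, HAUS6, rose in SUM159PT (median 0.17). The shares of all genes that rose were 24.9% and 17.7%. The spread between replicates was larger in SUM159PT (common biological coefficient of variation 0.165, against 0.0988), so fewer calls there need not mean a smaller response. The test of the difference between the lines called HAUS8 and HAUS1 of the 7 augmin genes. HAUS6 (chr9:19053143-19103119, minus strand), the subunit that recruits gamma-tubulin complexes through NEDD1, had 53.4, 53.5, 58.1 and 54.4 CPM with siYES1, against 37.4, 28.2, 29.9 and 25.1 CPM with siNS in MDA-MB-231. In SUM159PT it had 218, 202, 223 and 192 CPM with siYES1, against 145, 91.8, 116 and 121 CPM with siNS. It rose without overlap in both lines, by 0.86 ± 0.10 (SE, adjusted p = 3.39e-06) in MDA-MB-231 and 0.82 ± 0.12 (SE, adjusted p = 0.000146) in SUM159PT, although 17.7% of its words also occur in other genes, among them the pseudogenes HAUS6P1 and HAUS6P3. HAUS8 (chr19:17049729-17075625, minus strand), the subunit that binds the microtubule, had 33.01, 34.7, 40.96 and 41.5 CPM with siYES1, against 15.5, 18.9, 20.9 and 15.7 CPM with siNS in MDA-MB-231, at 1.08 ± 0.11 (SE, adjusted p = 6.5e-07). The SUM159PT libraries had 12.9, 13.4, 13.9 and 15.3 CPM with siYES1, against 16.1, 10.6, 10.9 and 11.8 CPM with siNS, at 0.17 ± 0.16 (SE, adjusted p = 0.434). Its siYES1 level was about 2 times the siNS level in MDA-MB-231, whereas the SUM159PT groups overlapped.

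HAUS1, a further augmin subunit, had 33.6, 35.99, 37.9 and 39.9 CPM with siYES1, against 23.5, 27.3, 30.2 and 24.1 CPM with siNS in MDA-MB-231, at 0.49 ± 0.10 (SE, adjusted p = 0.000455). Its levels in SUM159PT were 14.9, 13.3, 15.2 and 13.9 CPM with siYES1, against 21.7, 14.7, 15.3 and 13.2 CPM with siNS, at -0.18 ± 0.16 (SE, adjusted p = 0.409). HAUS5 had 40.3, 33.4, 39.6 and 39.9 CPM with siYES1, against 25.5, 27.3, 27.1 and 28.2 CPM with siNS in MDA-MB-231, at 0.50 ± 0.09 (SE, adjusted p = 0.000133); in SUM159PT it averaged 8.84 ± 1.04 CPM with siYES1 and 9.55 ± 4.20 CPM with siNS (SD, n = 4 each), with siNS replicate 1 the highest library at 15.1 CPM. HAUS1 and HAUS5 were thus apart in MDA-MB-231 and overlapped in SUM159PT. HAUS2 and HAUS3 rose by 0.43 and 0.49 in MDA-MB-231 and were at 0.17 and 0.23 in SUM159PT, not called. HAUS4, called in neither line, had 10.6, 8.28, 8.19 and 7.08 CPM with siYES1, against 7.71, 7.77, 8.99 and 6.13 CPM with siNS in MDA-MB-231 and 25.8, 23.3, 26.3 and 24.7 CPM with siYES1, against 20.2, 23.9, 25.7 and 23.5 CPM with siNS in SUM159PT. Of its words, 27.3% also occur in other genes, so its counts may be partly mixed.

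NEDD1, the adaptor that attaches the gamma-tubulin complex to augmin and to centrosomes, is counted with the gamma-tubulin genes. It had 48.7, 47.2, 54.9 and 50.3 CPM with siYES1, against 68.8, 56.8, 53.99 and 52.7 CPM with siNS in MDA-MB-231, at -0.21 ± 0.09 (SE, adjusted p = 0.068), and without siNS replicate 4 it was called as lower there (-0.25, adjusted p = 0.0417). NEDD1 was also called as lower in MDA-MB-231 with total counts as the scaling (-0.26, adjusted p = 0.0347) and in the joint fit of all libraries (-0.26, adjusted p = 0.0333). In SUM159PT it had 65.7, 71.4, 67.3 and 71.97 CPM with siYES1, against 50.2, 57.95, 51.1 and 58.8 CPM with siNS, all siYES1 values being the higher ones, at 0.34 ± 0.09 (SE, adjusted p = 0.0071).

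Of the satellite genes, PCM1, the scaffold of satellites, rose in both lines. It had 119, 119, 114 and 110.2 CPM with siYES1, against 108, 86.5, 84.6 and 81.2 CPM with siNS in MDA-MB-231 and 113, 109.8, 104 and 108 CPM with siYES1, against 79.7, 86.1, 83.3 and 80.7 CPM with siNS in SUM159PT. The groups did not overlap, and the log2 fold changes were 0.36 ± 0.09 (SE, adjusted p = 0.00252) in MDA-MB-231 and 0.40 ± 0.07 (SE, adjusted p = 0.000704) in SUM159PT. CEP290, a protein of satellites and the ciliary base, had 22.2, 20.4, 17.7 and 18.7 CPM with siYES1, against 18.1, 15.8, 14.03 and 13.96 CPM with siNS in MDA-MB-231, with overlapping groups, at 0.35 ± 0.11 (SE, adjusted p = 0.0147). Its SUM159PT values were 27.9, 26.7, 25.8 and 27.1 CPM with siYES1, against 23.1, 24.2, 21.2 and 17.7 CPM with siNS, at 0.32 ± 0.12 (SE, adjusted p = 0.0473), a call lost in 9 of 16 other settings. CEP72, which binds PCM1, had 22.8, 22.8, 17.6 and 20.99 CPM with siYES1, against 16.5, 17.5, 17.4 and 18.9 CPM with siNS in MDA-MB-231, at 0.26 ± 0.10 (SE, adjusted p = 0.0422), with overlap and a call lost in 10 of 16 other settings. In SUM159PT it averaged 21.95 ± 1.76 CPM with siYES1 and 20.8 ± 4.61 CPM with siNS (SD, n = 4 each), at 0.08 ± 0.15 (SE, adjusted p = 0.719). CEP131, a satellite protein, and OFD1, which limits centriole length, were called in neither line, with log2 fold changes of 0.10 and -0.15 in MDA-MB-231 and -0.21 and -0.37 in SUM159PT. OFD1 was called as lower in SUM159PT without siNS replicate 2 (-0.45, adjusted p = 0.0265) and with total counts as the scaling (-0.54, adjusted p = 0.0188).

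**Figure D3:**
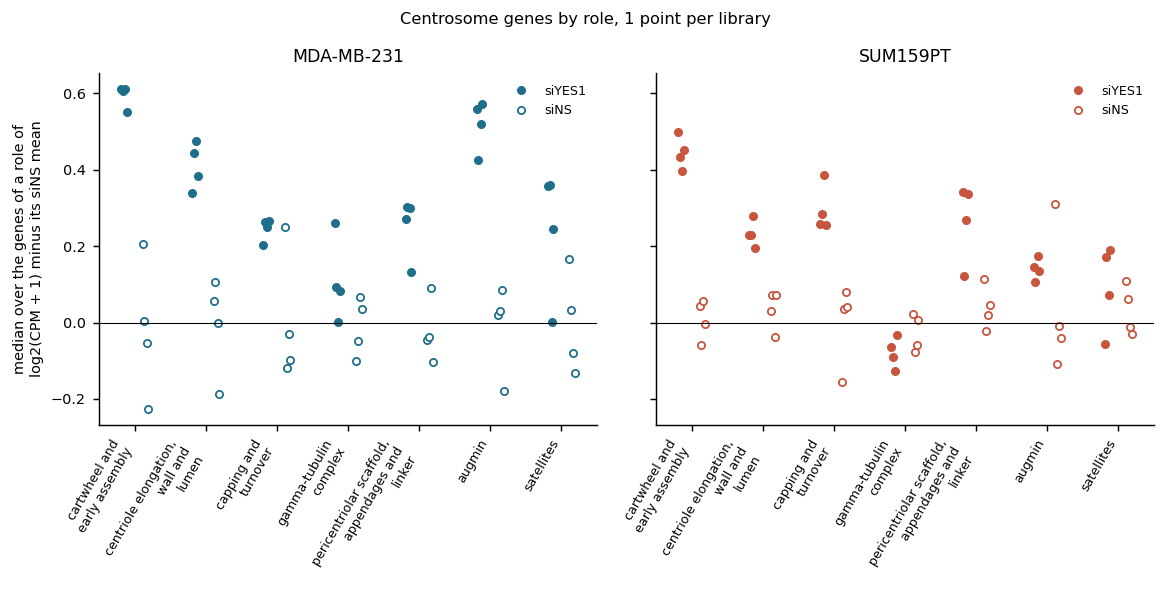
Median over the genes of each role of log2(CPM + 1) minus the siNS mean of the gene, 1 point per library (filled, siYES1; open, siNS), in MDA-MB-231 (left) and SUM159PT (right). The 4 siYES1 points of the cartwheel genes lie between 0.55 and 0.61 in MDA-MB-231 and between 0.40 and 0.50 in SUM159PT, above all siNS points, whereas the gamma-tubulin points of SUM159PT overlap.

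Across libraries, the role medians of log2(CPM + 1), each set against the siNS mean, show which libraries carried these differences. The cartwheel median lay at 0.55 to 0.61 in the siYES1 libraries of MDA-MB-231, against -0.23 to 0.21 in its siNS libraries, and at 0.40 to 0.50 in the siYES1 libraries of SUM159PT, against -0.06 to 0.06 in its siNS libraries. The augmin median lay at 0.42 to 0.57 in the siYES1 libraries of MDA-MB-231, against -0.18 to 0.08 in its siNS libraries. In SUM159PT augmin lay at 0.11 to 0.17 with siYES1, inside the siNS range of -0.11 to 0.31, whose top value was that of siNS replicate 1.

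A direct test of the difference between the lines (the SUM159PT response minus the MDA-MB-231 response, edgeR, all 16 libraries) called 9 of the 52 members. The response was higher in SUM159PT for 5 (CEP250, NEDD1, NIN, FBXW11 and TUBGCP2) and lower in SUM159PT for 4 (HAUS8, HAUS1, TUBG1 and POC5), where 15.4% of all 16299 genes tested were called higher and 8.85% lower. The difference was 0.83 ± 0.11 (SE, adjusted p = 1.46e-05) for CEP250 and 0.65 ± 0.13 (SE, adjusted p = 0.00116) for NEDD1, whose SUM159PT values were positive and MDA-MB-231 values negative. It was -0.82 ± 0.20 (SE, adjusted p = 0.00399) for HAUS8, -0.57 ± 0.19 (SE, adjusted p = 0.0289) for HAUS1 and -0.57 ± 0.13 (SE, adjusted p = 0.00274) for TUBG1, genes that rose in MDA-MB-231 and not in SUM159PT. For POC5 it was -0.50 ± 0.18 (SE, adjusted p = 0.0476), for NIN 0.45 ± 0.13 (SE, adjusted p = 0.0184), for FBXW11 0.38 ± 0.11 (SE, adjusted p = 0.016) and for TUBGCP2 0.32 ± 0.10 (SE, adjusted p = 0.0288); the last fell in both lines, less in SUM159PT. Without SUM159PT siNS replicate 1 the calls of NIN, FBXW11 and TUBGCP2 were lost (adjusted p = 0.0617, 0.0635 and 0.0541, with differences of 0.33, 0.24 and 0.27), and of 24 other settings the POC5 call was lost in 12, the TUBGCP2 call in 13 and the HAUS1 call in 6. With total counts as the scaling, which shifts the median difference of all genes by -0.22, the split was 2 members higher and 9 lower, among 1375 genes higher (8.44%) and 2795 lower (17.1%) in all. With TMM factors set within each line, which shifts that median by -0.1, NIN, FBXW11 and TUBGCP2 lost their calls and CEP192 was called as lower. Of all genes, 11.3% were then higher and 11.7% lower. The differences above come from a joint scaling of all 16 libraries, so they are not exactly the SUM159PT value minus the MDA-MB-231 value. YES1 itself differed, at -0.66 ± 0.17 (SE, adjusted p = 0.00657), its fold change being larger in SUM159PT.

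**Figure D4:**
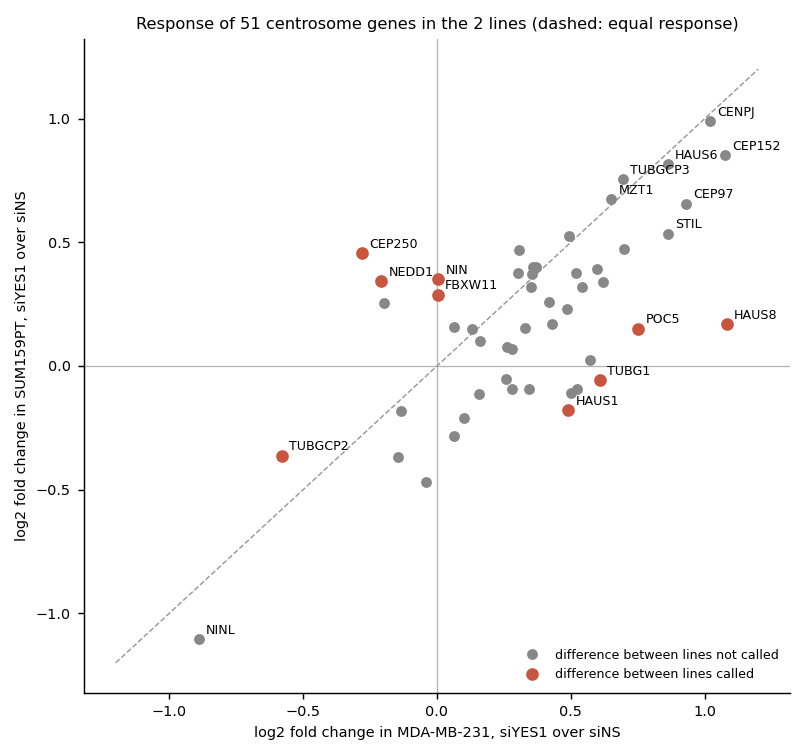
Log2 fold change of siYES1 over siNS in SUM159PT (vertical) against that in MDA-MB-231 (horizontal) for the 51 members tested in both lines; red points had a called difference between the lines, and the dashed line marks equal responses. CENPJ, HAUS6, TUBGCP3 and MZT1 lie near the dashed line, HAUS8 lies far below it and CEP250 far above it.

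Read across both lines, 13 members rose in each: STIL, CENPJ, CEP152, CEP63, CEP57, CEP135, CEP97, TUBGCP3, MZT1, CEP350, HAUS6, PCM1 and CEP290. A further 19 rose in MDA-MB-231 and were not called in SUM159PT, and 4 (TUBE1, FBXW11, NEDD1 and NIN) rose in SUM159PT and were not called in MDA-MB-231. For most of these the test of the difference between the lines was not passed. It called the 9 genes above, of which 2 of the 5 higher and 2 of the 4 lower kept their call in all 24 other settings. An uncalled difference does not show an equal response. That of CEP192 was -0.52 ± 0.19 (SE, edgeR adjusted p = 0.0557), and it stayed uncalled in 15 of the 24 settings. Over the 51 members tested in both lines, 38 had the same sign, 13 had opposite signs, and 35 had the higher value in MDA-MB-231. Pearson's r of the SUM159PT and MDA-MB-231 log2 fold changes was 0.66, given as a description over 51 genes that share their libraries.

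Per kilobase of exon, the members spanned a wide range of levels. SSNA1 was the highest in MDA-MB-231, at 128 RPKM with siYES1 and 106 RPKM with siNS, followed by TUBG1, at 74.6 RPKM with siYES1 and 48.95 RPKM with siNS. MZT1 was the highest in SUM159PT with siYES1 and second after SSNA1 with siNS, at 53.9 RPKM with siYES1 and 33.8 RPKM with siNS, and the SSNA1 level there was 37.4 RPKM with siYES1 and 35.7 RPKM with siNS. The siNS levels of MZT1 and SSNA1 in SUM159PT differed by less than their SDs (1.88 and 2.16 RPKM). At the low end stood SPICE1 in MDA-MB-231, at 0.0606 RPKM with siYES1 and 0.0746 RPKM with siNS, and NINL in SUM159PT, at 0.0558 RPKM with siYES1 and 0.120 RPKM with siNS. The median member was at 6.33 RPKM with siYES1 and 4.62 RPKM with siNS in MDA-MB-231, and at 4.59 RPKM with siYES1 and 3.83 RPKM with siNS in SUM159PT. HAUS6 stood higher in SUM159PT, at 26.3 RPKM with siYES1 and 14.9 RPKM with siNS, than in MDA-MB-231, at 6.92 RPKM with siYES1 and 3.80 RPKM with siNS; levels in the lines come from separately scaled tables and were not tested against each other.

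**Figure D5:**
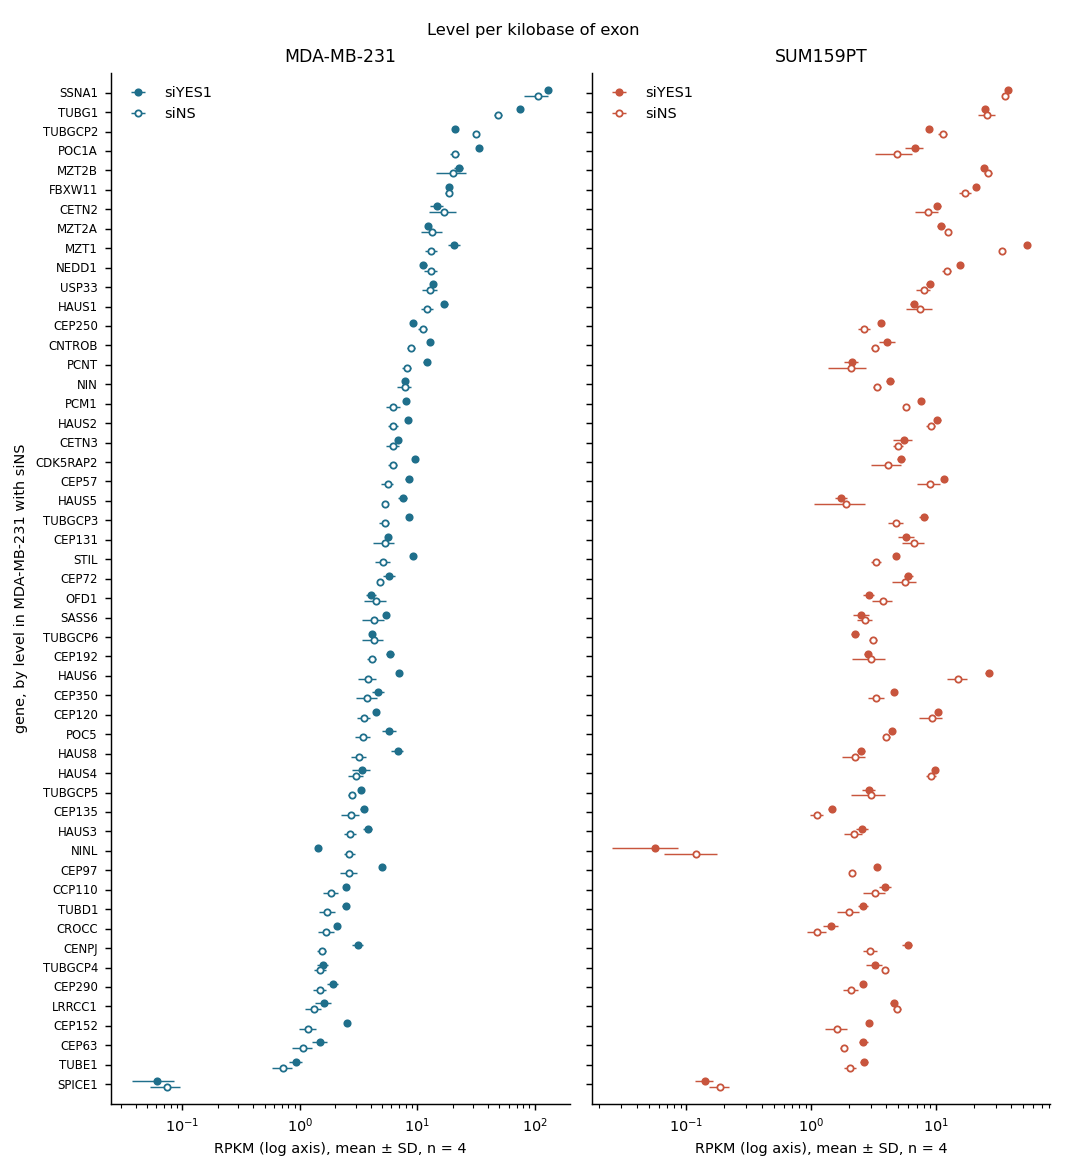
Level per kilobase of exon (RPKM, log axis, mean ± SD, n = 4) of the 52 members with siYES1 (filled) and siNS (open), ordered by the siNS level in MDA-MB-231. SSNA1 and TUBG1 are at the top and SPICE1 at the bottom in MDA-MB-231, and NINL drops to the bottom in SUM159PT.

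A further 68 centrosome genes, such as PLK4, distal appendage genes and spindle pole genes, were also chosen with earlier results of these data known. Of these, 66 were tested in each line. In MDA-MB-231, 43 of them rose and 6 fell, where 24.9% of all genes tested rose and 27.5% fell. Their median change there was 0.37 on the log2 scale, beside 0.0015 for all genes. Among the risers were WDR62 (1.28), a spindle pole protein, KIF24 (1.06), a kinesin that works with CCP110 and CEP97, and TACC3 (0.98), a spindle microtubule protein, and among the fallers CEP126 (-1.002) and TUBG2 (-0.59). In SUM159PT, 19 rose and 6 fell, where 17.7% of all genes tested rose and 19% fell. Their median there was 0.07, beside -0.03 for all genes. WDR62 (0.70), TACC3 (0.69) and CEP85 (0.83) were among those that rose, and CEP126 (-0.96) and LRRC45 (-1.22), a linker protein, among those that fell. The test of the difference between the lines called 6 of 67 higher and 12 lower in SUM159PT, where 15.4% of all genes were called higher and 8.85% lower. These named genes were picked after their values were seen, as examples.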

How the data were processed

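Poly-A selected RNA was reverse transcribed with random hexamers and sequenced, per the labels' protocols; HISAT2 2.0.5, featureCounts 1.5.0-p3 and build hg38 are named in the submitters' processing notes. The authors deposited 1 table of raw read counts per gene for each line, and no strand setting is given in the sources used here. The SUM159PT table's column names carry another prefix, so the line's name rests on the sample titles.

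Gene names and exon lengths came from GENCODE 29, which matched all 58735 IDs. Within each line, edgeR 4.0.16 (R 4.3.3) kept genes by filterByExpr (minimum count 10), scaled by TMM and ran the quasi-likelihood F test of siYES1 against siNS with Benjamini-Hochberg adjustment; a call is an adjusted p under 0.05. The difference between lines was the interaction in a fit of all 16 libraries. CPM uses the TMM-scaled library sizes of each line, and RPKM divides CPM by kilobases of exon union. SE is the log2 fold change over the root of F. The steps were tested on simulated data. DESeq2 1.42.0 and limma 3.58.1 (voom) were alternatives, with other scalings, filters, a replicate block, a joint fit and leaving out each library in turn; scaling within each line was added for the interaction after seeing the data.

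The members and all gene lists were chosen with earlier results of these data known. Genes named with values in every library were, per role and line, up to 3 called members with the largest change and a mean of at least 1 CPM, members called in opposite directions, 6 with the largest significant interaction, the 5 with the smallest changes, PLK4 and YES1. Overlap with other genes was counted as shared 50-base words of the transcripts. The spread between replicates limits precision: edgeR's common biological coefficient of variation came to 0.0988 for the MDA-MB-231 libraries and 0.165 for those of SUM159PT. No library was a copy of another. One marker gene of another cell type is not reported here.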

Additional observations from a re-analysis of the deposited data

Results flagged for a closer look

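Of 136 groups of 4 libraries over 34 genes, 10 held a library far from the other 3 (chance gives about 1 in 20). In SUM159PT, siNS replicate 1 was the library in 4 of them. It held 9.22 CPM of CEP152, where the others held 14.2 to 14.7, and 23.3 CPM of CCP110, where the others held 35.8 to 36.9. It also held 76.2 CPM of TUBG1, where the others held 55.6 to 58.6, and 40.8 CPM of NIN, where the others held 47.0 to 48.3. The low CEP152 and NIN values and the high TUBG1 value all bear on differences given above, and without this library CEP152 remained called at 0.71, NIN at 0.29, and TUBG1 was at 0.050 and not called.

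In MDA-MB-231, siNS replicate 1 held 22.7 CPM of CCP110, where the others held 17.2 to 17.4, and 109 CPM of USP33, where the others held 81.6 to 84.4. With siYES1, replicate 2 held 33.4 CPM of HAUS5 (others 39.6 to 40.3) and replicate 1 held 5.22 CPM of TUBE1 (others 6.70 to 6.94). In SUM159PT with siYES1, replicate 2 held 120.01 CPM of FBXW11 (others 115 to 116) and replicate 3 held 61.8 CPM of CEP350 (others 66.8 to 67.5).

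By the test of the difference itself, the SUM159PT response minus the MDA-MB-231 response was 0.83 for CEP250, 0.65 for NEDD1, 0.45 for NIN and 0.38 for FBXW11. It was -0.82 for HAUS8, -0.57 for TUBG1, -0.57 for HAUS1, -0.50 for POC5 and -0.66 for YES1.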

How the results depend on the processing

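In MDA-MB-231, 23 of the 32 members that rose and all 3 that fell kept their call in 16 of 16 other settings; in SUM159PT 11 of 18 and 2 of 2 did, and for the difference between lines 2 of 5 higher and 2 of 4 lower did in 24 of 24. The number of members called was 27 to 36 in MDA-MB-231 (35 above) and 15 to 26 in SUM159PT (20 above), and 6 to 11 for the difference (9 above). The shares of all genes moved too. They were 13.1% to 26.1% rising and 13.8% to 30.4% falling in MDA-MB-231, and 9.63% to 21% rising and 10.7% to 28.8% falling in SUM159PT. For the difference they were 6.56% to 17.2% higher and 5.43% to 17.1% lower. Leaving out 1 library gave 31 to 36, 15 to 25 and 6 to 10 members called, with member medians of 0.31 to 0.46, 0.18 to 0.26 and -0.11 to -0.045. The SUM159PT median was 0.032 with total counts as the scaling and 0.24 in the joint fit of all libraries. The median difference was -0.32 with total counts and -0.20 with factors set within each line. In the joint fit 32 further centrosome genes were called in MDA-MB-231 (28 rose and 4 fell), against 49; of all genes 13.7% rose and 22.5% fell in that fit, against 24.9% and 27.5%. Relative to the median of all genes, the SUM159PT member median was 0.230 above, 0.232 with total counts, 0.217 to 0.292 with 1 library left out and 0.35 with no filter on low counts. Of all called genes, 48.2% rose in SUM159PT, 25% with total counts; of the called differences 63.5% were higher, 33% with total counts and 49% with factors set within each line.

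Uncalled values near 0 changed sign. With total counts the median of all genes itself shifted by -0.046 in MDA-MB-231 and by -0.17 in SUM159PT. In the joint fit it shifted by -0.051 in MDA-MB-231. The cause of the changes of sign was not tested. In MDA-MB-231 FBXW11 and NIN were both at -0.044 with total counts and -0.052 in the joint fit. In SUM159PT with total counts POC5 was at -0.020, PCNT -0.16, HAUS8 -0.0084, CEP72 -0.099, USP33 -0.018, HAUS4 -0.067 and CETN3 -0.021. Leaving out libraries gave, in MDA-MB-231, FBXW11 -0.036 to 0.040, NIN -0.058 to 0.098, MZT2B -0.0036 to 0.28 and TUBGCP6 -0.12 to 0.091; in SUM159PT, TUBG1 -0.10 to 0.050, HAUS5 -0.32 to 0.18, PCNT -0.14 to 0.22 and CEP72 -0.0081 to 0.21.

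The deviations of same-numbered libraries correlated at r of -0.123 to 0.0877, and those of differently numbered libraries at -0.224 to 0.213. With 4 libraries per group, these values cannot decide whether the numbers pair samples. With the replicate number as a block, 34 members were called in MDA-MB-231 (31 rose, 3 fell), 19 in SUM159PT (17 rose, 2 fell) and 8 for the difference (4 each way), with medians of 0.36, 0.21 and -0.074. Of all genes, 23.6% rose and 26% fell in MDA-MB-231 with that block, and 16.8% rose and 17.5% fell in SUM159PT. For the difference, 13.9% were higher and 7.8% lower.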
